A study of Mus musculus with 8 samples.

Results

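The loci of 8 mouse POU genes were examined for binding of 4 reprogramming factors: Pou5f1, Pou2f1, Pou2f2, Pou2f3, Pou3f1, Pou3f2, Pou3f3 and Pou6f1. A locus held every peak whose summit lay in the gene body or within 100 kb of the first annotated start site on mm10. This gave 496 of the 661009 peaks in the 8 lists. Merging peaks that overlapped by at least 1 bp gave 211 of 306466 regions. Binding was measured by CUT&Tag, in which an antibody directs the transposase Tn5 to a chromatin-bound protein so that the DNA around it is cut, tagged and sequenced. The antibody was against Flag, the tag on the delivered factor.

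The cells were embryonic fibroblasts of the mouse (MEFs) on day 3 of their reprogramming, taken from E13.5 embryos of a cross of 129 with OG2 mice and cultured in the medium iCD3. OG2 is a transgene in which regulatory sequence of Pou5f1 drives GFP. The factors were delivered by pMXs retrovirus, whose insertions differ from cell to cell. The groups were native Nanog, NanogBiD, native Oct4, Oct4BiD, native Sox2, Sox2BiD, native Nr5a2 and Nr5a2BiD. BiD is a piece of the BAF subunit SS18, through which it contacts the remodelling ATPase BRG1, and was joined to the N-terminus of the factor. Titles do not state which further factors the same cells received. Each group held 1 library, so no value below has a replicate error, no test was made within a factor, and intervals cover counting error only. No untreated or control library was analysed.

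POU proteins bind DNA through a POU-specific domain joined by a linker to a homeodomain, and many of them recognise the octamer ATGCAAAT. Pou5f1 encodes Oct4 itself, a regulator of pluripotency that is silent in fibroblasts. Pou2f1 encodes the broadly expressed Oct1, Pou2f2 the B-cell factor Oct2, and Pou2f3 a factor of tuft cells and epidermis. Pou3f1 (Oct6), Pou3f2 (Brn2) and Pou3f3 (Brn1) are regulators of neural and glial development, and Pou6f1 is a more distant member expressed in the brain. Oct4 is thus both a tagged protein and the product of a locus studied here, and its relatives share its recognition sequence.

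Sequences of 101 bases centred on summits are shown where the report turns on a binding site or on its absence. They were read from GRCm38 on the strand of the POU gene, 5′ to 3′. The first 3 are Oct4BiD summits, and capitals mark exact matches to the octamer on either strand.

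Pou2f3 start, chr9:43210139-43210239, minus strand: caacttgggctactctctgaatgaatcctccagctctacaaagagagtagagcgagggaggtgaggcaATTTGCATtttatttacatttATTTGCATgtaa

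Pou2f3 intron, chr9:43200336-43200436, minus strand: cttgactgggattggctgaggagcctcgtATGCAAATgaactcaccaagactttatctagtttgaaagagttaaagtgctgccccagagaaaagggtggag

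Pou3f2 downstream, chr4:22427829-22427929, minus strand: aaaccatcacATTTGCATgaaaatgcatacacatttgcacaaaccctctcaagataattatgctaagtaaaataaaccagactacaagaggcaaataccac

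The next 3 are Oct4BiD summits at start sites without an exact octamer. Capitals mark matches with up to 1 mismatch, a looser search added after the exact search had been seen. Such matches also lay in 11.4% of windows of the same size flanking all Oct4BiD summits. The starts of Pou2f2 and Pou6f1 held the same 8 letters, CTTTGCAT, while the start of Pou2f1, the highest of all Oct4 peaks at these loci, held no match.

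Pou2f1 start, chr1:166002544-166002644, minus strand: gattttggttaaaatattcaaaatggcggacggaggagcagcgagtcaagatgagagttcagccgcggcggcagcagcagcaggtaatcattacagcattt

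Pou2f2 start, chr7:25179521-25179621, minus strand: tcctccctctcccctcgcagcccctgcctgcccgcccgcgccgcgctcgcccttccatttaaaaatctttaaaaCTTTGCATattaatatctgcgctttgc

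Pou6f1 start, chr15:100600080-100600180, minus strand: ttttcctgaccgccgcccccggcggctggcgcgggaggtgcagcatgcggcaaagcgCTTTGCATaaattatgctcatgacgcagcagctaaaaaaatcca

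The last 3 belong to other factors. They are the native Nr5a2 summit just upstream of Pou5f1, in which no NR5A match was found, the Sox2BiD summit downstream of Pou5f1 with its SOX match in capitals, and the Nr5a2BiD summit upstream of Pou2f2 with its NR5A match in capitals.

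Pou5f1 upstream, chr17:35503841-35503941, plus strand: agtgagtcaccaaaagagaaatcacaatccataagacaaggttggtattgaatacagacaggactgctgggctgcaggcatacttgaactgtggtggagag

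Pou5f1 downstream, chr17:35514225-35514325, plus strand: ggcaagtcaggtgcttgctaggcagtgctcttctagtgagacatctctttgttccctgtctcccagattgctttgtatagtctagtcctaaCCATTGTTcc

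Pou2f2 upstream, chr7:25205003-25205103, minus strand: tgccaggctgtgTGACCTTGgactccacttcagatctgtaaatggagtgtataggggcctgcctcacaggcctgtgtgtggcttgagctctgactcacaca

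The lists held from 54794 peaks (native Oct4) to 120594 (Sox2BiD). The read totals that the study gives were not used here. Summit height is the number of tags at the highest point of a peak and is not scaled to depth. Heights of different libraries are set side by side below as unscaled tags. Where an order between the native and the BiD library is stated, the height percentile among all peaks of each library stands beside it. The score is 10 times the negative log10 of the peak caller's p-value, and 50 is the lowest score kept. In each library, 6 to 10 of 10 fibroblast genes (Col1a1, Col1a2, Col3a1, Fn1, Vim, Thy1, Twist1, Prrx1, Pdgfra and Pdgfrb) had a summit within 2 kb of their start. Of 10 pluripotency genes (Nanog, Esrrb, Zfp42, Dppa3, Dppa5a, Tdgf1, Fgf4, Utf1, Lin28a and Sall4) 0 to 3 did. Over all protein-coding genes the share ran from 18.9% in native Sox2 to 56.4% in native Nr5a2. A peak of a delivered factor is not a measure of expression.

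**Figure D1:**
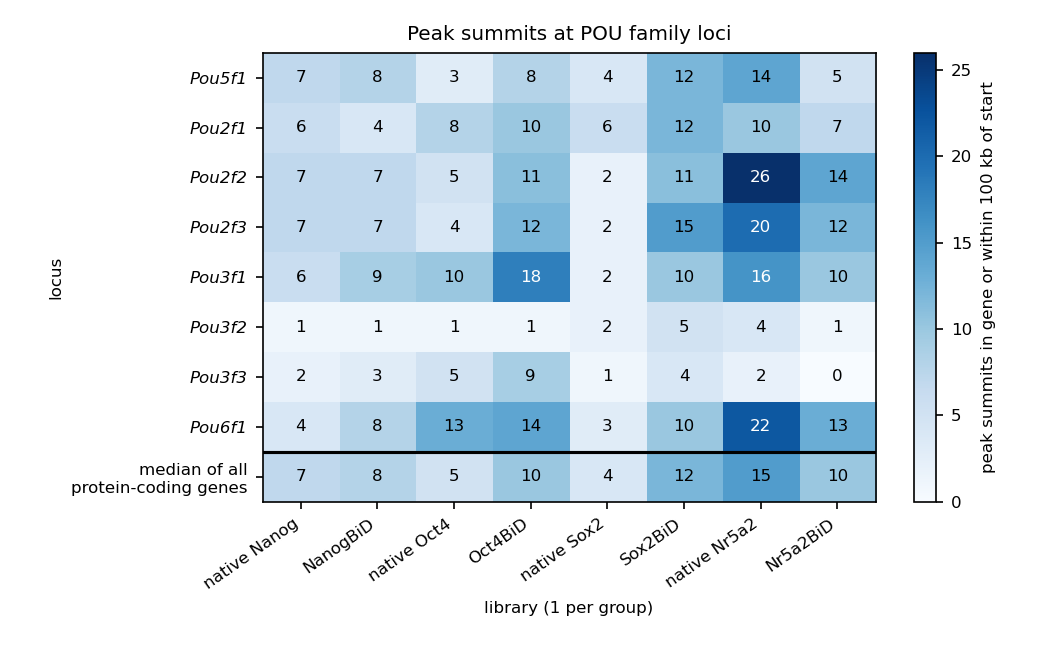
Number of peak summits at each POU locus (rows) in each of the 8 libraries (columns, 1 library each); the last row is the median over 21938 protein-coding genes with windows built the same way. Pou3f2 and Pou3f3 have the palest rows, and the native Nr5a2 column is the darkest, with 26 summits at Pou2f2.

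The loci carried between 16 and 87 peaks each. Pou6f1 had 87 peaks in 38 regions, Pou2f2 had 83 in 29, Pou3f1 had 81 in 29 and Pou2f3 had 79 in 32. Pou2f1 had 63 in 29 and Pou5f1 had 61 in 27. Pou3f3 and Pou3f2 had the fewest, with 26 peaks in 17 regions and 16 peaks in 10. In each of the 8 libraries the lowest count of the 8 loci was at Pou3f2 or Pou3f3. Over all protein-coding genes the median count ran from 4 in native Sox2 to 15 in native Nr5a2. The number of loci above the median of the library ran from 0 in native Nanog to 4 in Oct4BiD and in native Nr5a2.

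A window of this size often held other genes. The POU gene had the nearest protein-coding start for 172 of the 496 peaks (34.7%), and 90 summits lay inside a POU gene. Pou3f3, Pou3f2 and Pou2f1 had no other protein-coding start in their windows, and there 100%, 68.8% and 88.9% of peaks were nearest to the member. At Pou5f1, with 9 other protein-coding starts in its window, only 8.2% were, and at Pou3f1 and Pou6f1, with 5 each, 13.6% and 13.8% were. At Pou2f3, with 2 other starts, 26.6% were, and at Pou2f2, with 5, 36.1% were. Counts at those loci include the peaks of neighbouring genes.

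Pou5f1 (ENSMUSG00000024406.16, chr17:35506018-35510772, plus strand) had no summit within its gene body in any library, including both Oct4 libraries. A single peak overlapped the gene, a native Sox2 peak that covered 165 bp of its 3′ end and had its summit beyond it. In its window native Nr5a2 gave 14 summits and Nr5a2BiD 5, Sox2BiD 12 and native Sox2 4. Oct4BiD gave 8 and native Oct4 3, and NanogBiD 8 and native Nanog 7. Among protein-coding genes these counts stood between the 26.6th percentile (Nr5a2BiD) and the 48.9th (native Sox2). Of the 61 summits, 11 lay upstream of the start and 50 downstream, and 6 of the 11 upstream were native Nr5a2.

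The distal region upstream of Pou5f1, which in pluripotent cells contains its known enhancers, held 5 summits within 20 kb. Native Nr5a2 had the highest, with 96 tags at 2.13 kb upstream of the start (score 236.8). Sox2BiD had 41 tags at 2.18 kb (score 85.0), within 52 bp of the Nr5a2 summit. Native Nanog had 17 tags at 3.46 kb and Oct4BiD 23 tags at 5.08 kb, all 4 in the region chr17:35500497-35505015. A further Sox2BiD peak of 18 tags lay 15.5 kb upstream. NanogBiD, native Oct4, native Sox2 and Nr5a2BiD had no peak in these 20 kb, and no octamer, with up to 1 mismatch, lay within 50 bp of the Oct4BiD summit.

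Downstream of Pou5f1, in introns of its neighbour Tcf19, the region chr17:35510608-35515318 held peaks of 5 libraries. Sox2BiD had 85 tags at 8.26 kb from the start, with the SOX match printed above. Native Nr5a2 had 54 tags, native Sox2 53, native Nanog 45 and NanogBiD 30, at 7.20 to 7.49 kb. The sequences within 50 bp of the native Sox2 and native Nanog summits held a run of repeated CA. Native Oct4, Oct4BiD and Nr5a2BiD had no peak here. NanogBiD had 2 further peaks, of 32 and 28 tags at 11.0 and 12.7 kb, the nearer of them 65 bp from the start of Cchcr1.

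The peaks around Pou5f1 were high for their scores. Within 15 kb of the start, an interval chosen after the values were seen, the 11 peaks had a median height percentile of 85.8 and a median score percentile of 25.3. Peaks were called low for their height when their score was in the lowest 5% among peaks of their library within 10% of their height, and 4.77% of all peaks were. Of these 11 peaks, 7 were (63.6%), against 4 of 50 in the rest of the window (8%) and 20 of 435 at the other 7 loci (4.6%). The native Nr5a2 peak of 96 tags, at the top of its library by height and at the 75.7th score percentile, lay above that limit, at the 9.49th percentile of scores for like heights. All 8 libraries come from cells with the OG2 transgene, and reads from its Pou5f1 sequence cannot be told apart from those of the gene's own locus.

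**Figure D2:**
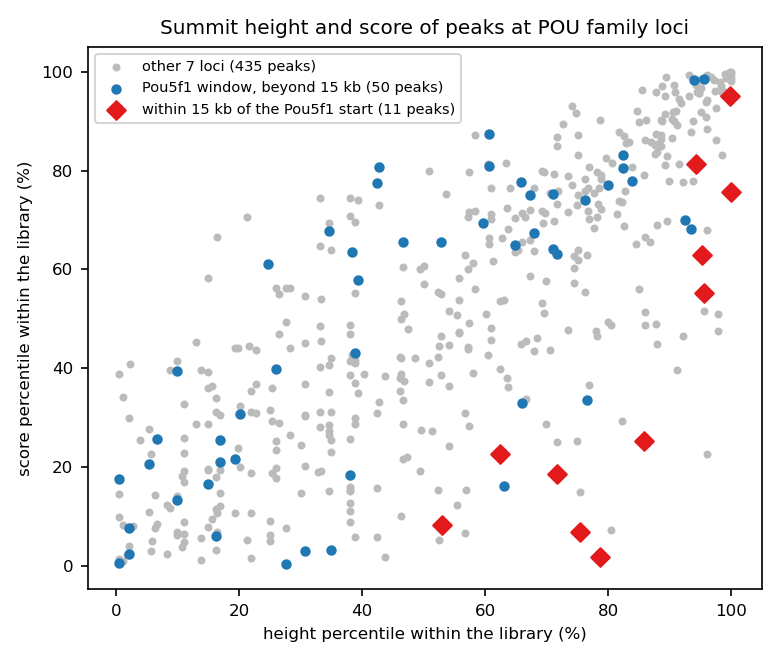
Score percentile (y axis, %) against height percentile (x axis, %) within its own library for each of the 496 peaks, with the 11 peaks within 15 kb of the Pou5f1 start as red diamonds. Most points follow the diagonal, while 6 of the red diamonds lie at score percentiles from 1.86 to 25.3.

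The Pou5f1 window had a single region with peaks in all 8 libraries, 84.5 to 85.1 kb downstream and 10.4 to 11.0 kb from Sfta2, its nearest coding gene. There NanogBiD had 49 tags and native Nanog 45, native Oct4 27, Oct4BiD and Sox2BiD 25 each, and native Sox2, native Nr5a2 and Nr5a2BiD 19 each. The native Nanog peak was the highest of the window by score percentile (98.6). Both Oct4 libraries had their summit at the same base, chr17 position 35591108, with an octamer of up to 1 mismatch within 50 bp. Both Sox2 summits of this region had such a match as well.

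**Figure D3:**
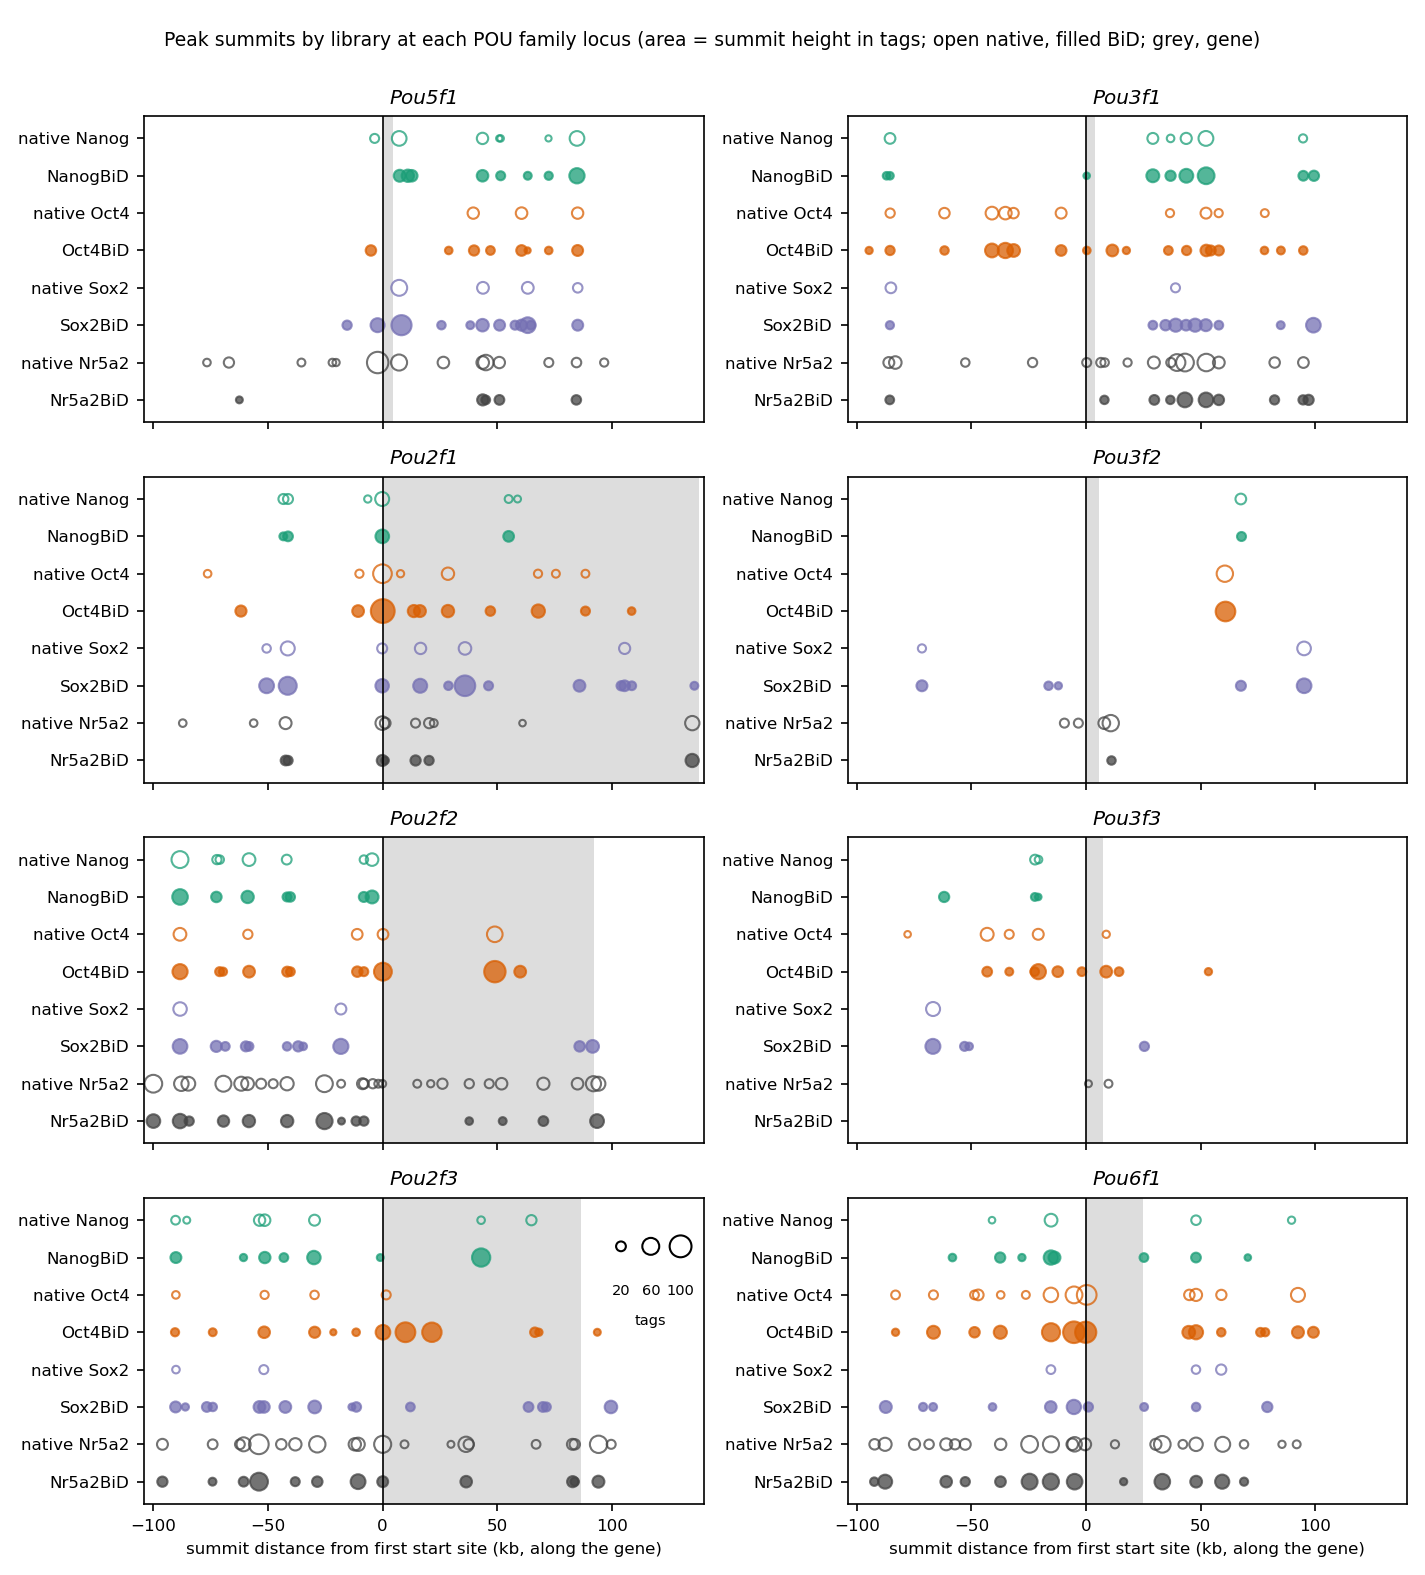
Summits of each library (rows) at each locus, by distance from the first start site in kb along the gene; symbol area is the summit height in tags, open symbols are native and filled symbols BiD libraries, and grey marks the gene. Oct4 symbols are the largest ones at the starts of Pou2f1, Pou2f2 and Pou6f1, and several lie upstream of Pou3f1. Pou5f1 shows summits on both sides of an empty gene body.

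Pou2f1 (ENSMUSG00000026565.18, chr1:165865154-166002678, minus strand) was the only member with a summit within 2 kb of its start in all 8 libraries. Oct4BiD had 119 tags at 84 bp downstream of the start, in a coding exon, the highest peak of the 496. Native Oct4 had 73 tags at 37 bp upstream. Native Nanog had 41 tags, NanogBiD and native Nr5a2 39 each, Sox2BiD 38, Nr5a2BiD 26 and native Sox2 21, all at 0.101 to 0.176 kb upstream. The height percentile within the library was 99.6 for native Oct4 and rounded to 100 for Oct4BiD, while the other 6 ranged from the 47.4th to the 93.7th. The Oct4 summits thus stood apart in height from the other libraries at a start that all of them marked.

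Inside Pou2f1, regions were divided between factors. Over the whole window, native Nr5a2 gave 10 summits and Nr5a2BiD 7, Sox2BiD 12 and native Sox2 6, Oct4BiD 10 and native Oct4 8, and NanogBiD 4 and native Nanog 6. The highest region of both Sox2 forms with no other library lay in an intron at 35.9 kb, where Sox2BiD had 89 tags and native Sox2 33. Both Oct4 libraries, and no other, had a peak at an internal start of the gene, 67.8 to 67.9 kb from the first. Native Oct4 had 14 tags at 36 bp and Oct4BiD 37 tags at 158 bp from that annotated transcript start. Both Nr5a2 forms had a peak near the 3′ end, with 43 tags in native Nr5a2 and 37 in Nr5a2BiD.

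Pou2f2 (ENSMUSG00000008496.19, chr7:25087344-25179726, minus strand) had the largest count of any locus and library, 26 summits in native Nr5a2. That rank depends on weak peaks, and the count includes summits nearest to neighbouring genes such as Cic and Dedd2. At a score of at least 100 Pou2f2 and Pou6f1 had 15 each in native Nr5a2, and among the 50000 peaks of highest score 10 and 11. At this locus Nr5a2BiD gave 14, Sox2BiD 11 and native Sox2 2, Oct4BiD 11 and native Oct4 5, and NanogBiD 7 and native Nanog 7. At its start Oct4BiD had 67 tags (155 bp downstream) and native Oct4 24 (193 bp), against 12 and 13 tags in native Nr5a2 at 79 bp and 1.87 kb upstream. No other library had a summit there. In an intron at 48.9 to 49.0 kb, 1.70 to 1.75 kb from an internal start of Pou2f2, Oct4BiD had 96 tags and native Oct4 51, with no other library. Height percentiles were 98.3 for Oct4BiD and 76.8 for native Oct4 at the start, and 99.9 and 97.5 at the intronic region, so Oct4BiD was higher on both scales.

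Both forms had a peak 25.3 to 25.4 kb upstream, in an intron of Dedd2, with 59 tags in native Nr5a2 and 55 in Nr5a2BiD and the NR5A match printed above. The peak of highest score percentile was native Nanog with 60 tags, 88.4 kb upstream and 390 bp from the start of Cic, in a region with peaks of all 8 libraries (34 to 60 tags). Another region with all 8 libraries lay at the edge of the window upstream, and only its Nr5a2 summits (66 and 39 tags) fell inside.

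Pou2f3 (ENSMUSG00000032015.16, chr9:43123939-43210369, minus strand) had the 2 highest peaks at these loci that were called in Oct4BiD and not in native Oct4. They lay in its introns, with 82 tags at 9.98 kb and 79 tags at 21.5 kb from the start. The first held the octamer printed above and the other held 2 matches with 1 mismatch. At the start, Oct4BiD had 45 tags at 180 bp downstream over 2 exact octamers, while native Oct4 had 17 tags at 1.59 kb. Native Nr5a2 had 61 tags at 49 bp and Nr5a2BiD 25 at 66 bp, in the 5′ untranslated region, and NanogBiD had 10 tags at 998 bp upstream.

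The highest region of both Nanog forms with no other library lay in an intron of Pou2f3 at 43.0 kb, with 70 tags in NanogBiD and 12 in native Nanog. It held no NANOG match within 50 bp. The region with the most libraries lay from 51.4 kb upstream onwards and had peaks in all 8, the highest of them 81 tags in native Nr5a2 and 67 in Nr5a2BiD. It is nearest to Oaf among coding genes. Across the locus native Nr5a2 gave 20 summits and Nr5a2BiD 12, Sox2BiD 15 and native Sox2 2, Oct4BiD 12 and native Oct4 4, and NanogBiD 7 and native Nanog 7.

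Pou3f1 (ENSMUSG00000090125.3, chr4:124656807-124660655, plus strand) had the most Oct4BiD summits of the 8 loci, 18, against 10 in native Oct4. At a score of at least 100 it had 10 against 12 at Pou6f1, and among the 50000 peaks of highest score 8 against 10, with 9 in native Oct4 at Pou3f1. Of the other libraries, native Nr5a2 gave 16 and Nr5a2BiD 10, Sox2BiD 10 and native Sox2 2, and NanogBiD 9 and native Nanog 6. Of its 29 regions, 6 were bound by both Oct4 forms and by no other library, and 5 of the 6 lay upstream, between 10.9 and 61.8 kb from the start. In native Oct4 these 5 peaks had 23, 34, 33, 23 and 25 tags, in order from the farthest to the nearest. In Oct4BiD they had 15, 40, 49, 34 and 24 tags. Height percentiles in the same order were 74.5, 90.3, 89.5, 74.5 and 78.9 for native Oct4 and 33.3, 88.0, 93.5, 82.2 and 64.9 for Oct4BiD. Oct4BiD was thus higher in 3 of the 5 by tags and in 2 of the 5 by percentile. All 5 lay in introns of the gene model Gm2164, and only the nearest had Pou3f1 as its nearest coding start.

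At the Pou3f1 start the peaks were low. Native Nr5a2 had 17 tags, Oct4BiD 12 and NanogBiD 9, at 274 to 338 bp downstream in the 5′ untranslated region. The NanogBiD peak had a score of 50.9, close to the threshold. The peak of highest score percentile (96.1) was native Nr5a2 with 64 tags at 52.4 kb, 5.54 kb from Sf3a3, and the region with all 8 libraries lay 85.1 to 86.0 kb upstream with 12 to 25 tags.

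Pou3f2 (ENSMUSG00000095139.2, chr4:22482780-22488366, minus strand) had 16 peaks, none in the gene and none within 2 kb of its start. Sox2BiD gave 5, native Nr5a2 4, native Sox2 2, and the other 5 libraries 1 each. Oct4 bound at a single place, 60.5 kb downstream in an intron of Fbxl4, where Oct4BiD had 81 tags and native Oct4 56 and no other library had a peak. This was the highest-scoring region at the 8 loci that both Oct4 forms and no others bound, and it held the octamer printed above. Both Nr5a2 forms alone marked a region 10.8 kb downstream, with 56 tags in native Nr5a2 and 15 in Nr5a2BiD. Both Sox2 forms alone marked regions 95.1 kb downstream (45 tags in Sox2BiD, 39 in native Sox2) and 71.6 kb upstream (25 and 14). The region with the most libraries had 3, both Nanog forms and Sox2BiD, at 67.5 to 67.6 kb.

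Pou3f3 (ENSMUSG00000045515.3, chr1:42695768-42703176, plus strand) had 26 peaks, all nearest to Pou3f3 among coding genes, of which 14 were Oct4 peaks (5 native and 9 BiD). Sox2BiD gave 4, NanogBiD 3, native Nanog and native Nr5a2 2 each, and native Sox2 1. Oct4BiD had 48 tags and native Oct4 25 at 20.8 to 20.9 kb upstream, where native Nanog had 12 and NanogBiD 9. Native Oct4 was higher at 43.1 kb upstream, with 35 tags against 20 (height percentiles 91.0 and 53.6), and at 33.5 kb upstream, with 17 against 13 (52.4 and 22.8). Both regions held no other library. Nr5a2BiD had no summit in the window. Near the start there were 16 tags of Oct4BiD at 1.82 kb upstream and 10 tags of native Nr5a2 at 1.05 kb downstream, with scores of 70.6 and 53.3.

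Pou6f1 (ENSMUSG00000009739.17, chr15:100575318-100599984, minus strand) had tall peaks of both Oct4 forms at its start. Over its window, native Nr5a2 gave 22 summits and Nr5a2BiD 13, Sox2BiD 10 and native Sox2 3, Oct4BiD 14 and native Oct4 13, and NanogBiD 8 and native Nanog 4. Oct4BiD had 94 tags at 146 bp upstream and native Oct4 81 at 284 bp downstream, both at the 99.8th height percentile, against 30 tags in native Nr5a2 and 18 in Sox2BiD. At 5.25 to 5.30 kb upstream Oct4BiD had 98 tags and native Oct4 59, beside Sox2BiD with 43, Nr5a2BiD with 51 and native Nr5a2 with 44. These Nr5a2 summits lay 4.98 to 4.99 kb upstream, apart from the Oct4 and Sox2 summits. No octamer, with up to 1 mismatch, lay within 50 bp of either Oct4 summit here. A region 15.3 to 15.4 kb upstream, at the start of Dazap2, had peaks in all 8 libraries, from 16 tags in native Sox2 to 69 in Oct4BiD. Its Oct4 summits also had no such octamer.

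**Figure D4:**
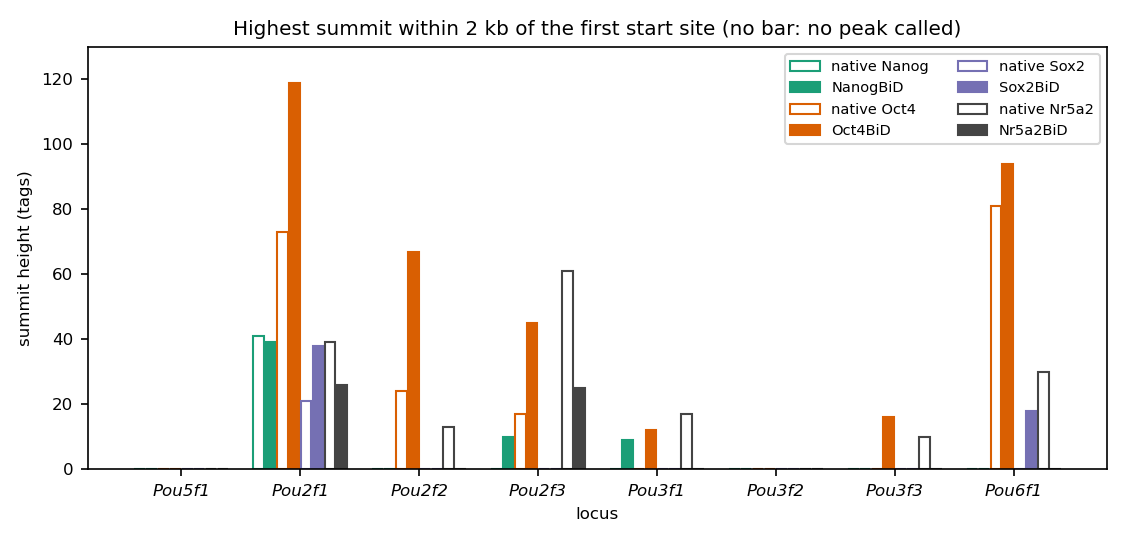
Height in tags (y axis) of the highest summit within 2 kb of the first start site of each locus, with 1 bar per library (open native, filled BiD); no bar means that no peak was called. Oct4 bars are the tallest at Pou2f1, Pou2f2 and Pou6f1, a native Nr5a2 bar at Pou2f3, and Pou5f1 and Pou3f2 have none.

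Start sites of the members are given beside those of all genes. Within 2 kb of the start, 6 of 8 members had a summit in Oct4BiD, where 50.3% of all protein-coding genes did, and 6 of 8 in native Nr5a2, where 56.4% did. Native Oct4 had 4 members against 33.5% of genes. NanogBiD had 3 against 49.0%, and Sox2BiD and Nr5a2BiD 2 each against 45.9% and 46.8%. Native Nanog had 1 against 45.8%, and native Sox2 had 1 against 18.9%, in both cases Pou2f1. With 8 members these counts are a description. Pou2f1 was marked in 8 libraries, Pou2f3 in 5, Pou6f1 in 4, Pou2f2 and Pou3f1 in 3 each, Pou3f3 in 2, and Pou5f1 and Pou3f2 in none. The RefSeq promoter table (GRCm38, 250 bases before to 50 after each start) had promoters of 6 members, and none held the exact octamer. Of the 32851 promoters in the table, 1.74% did. For Pou2f2 the only entry was at an internal start (chr7:25132411-25132710), so its first start was not covered. The entries of Pou2f1 and Pou5f1 included internal starts as well as the first.

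The comparison of each BiD fusion with its native factor asked whether joining BiD to a factor changes where it binds. Over the 8 loci, Sox2BiD had 79 summits and native Sox2 22, a log2 ratio of 1.84 (95% interval 1.15 to 2.60). For all peaks of the libraries, whether or not they lie in a gene window, it was 1.05. The median protein-coding gene window held 12 Sox2BiD summits and 4 of native Sox2. All 8 loci had more summits in Sox2BiD, as had 88.4% of protein-coding genes, while 1.68% had fewer. Oct4BiD had 83 and native Oct4 49, a log2 ratio of 0.76 (0.23 to 1.30), close to the 0.78 for all peaks. Of the loci 7 had more summits in Oct4BiD and Pou3f2 was equal, beside 82.2% of genes with more and 4.59% with fewer. Nr5a2 ran the other way, with 62 summits in Nr5a2BiD and 114 in native Nr5a2, a log2 ratio of -0.88 (-1.35 to -0.42) against -0.50 for all peaks. All 8 loci had fewer in Nr5a2BiD, as had 81.3% of genes, while 4.18% had more. Nanog differed least, with 47 in NanogBiD and 40 in native Nanog, a log2 ratio of 0.23 (-0.41 to 0.88) against 0.04, with 4 loci higher, 3 equal and Pou2f1 lower, beside 53.2% and 21.2% of genes.

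**Figure D5:**
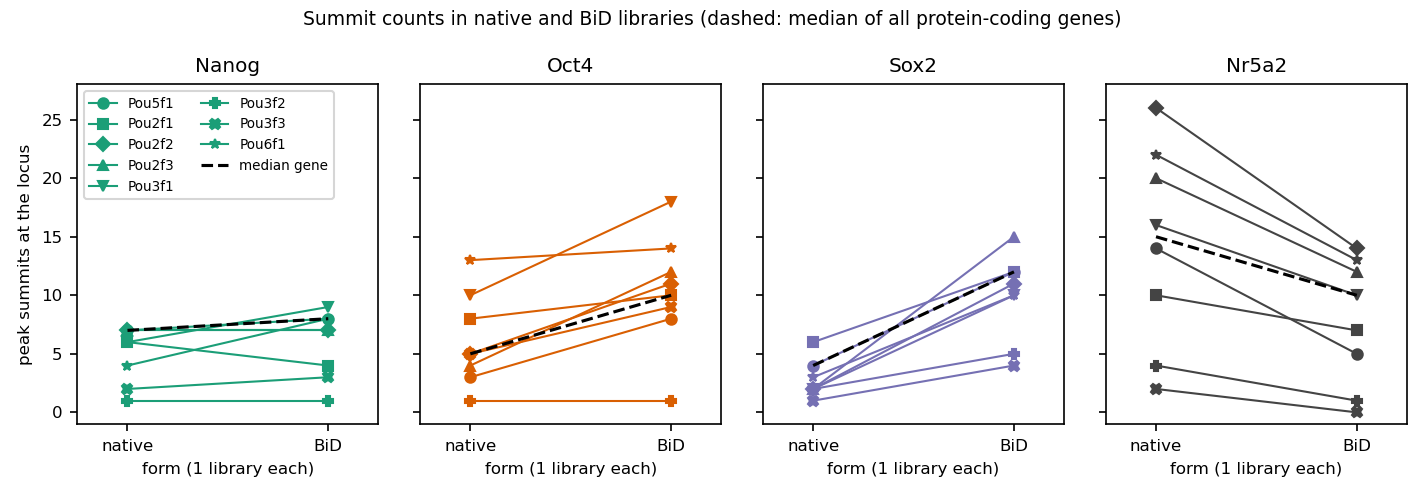
Number of summits at each of the 8 loci (symbols) in the native and the BiD library of each factor, 1 library per form, with the median over all protein-coding genes as a dashed line. Lines rise for all 8 loci in Sox2 and fall for all 8 in Nr5a2, and the dashed lines run the same way.

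The direction at the POU loci was that of most genes for Oct4, Sox2 and Nr5a2. Ratios for all peaks are not a like comparison for gene windows, and counts per 10000 peaks share this limit. Besides the Sox2 medians above, the BiD median per gene window was 10 for Oct4 (native 5). It was 10 for Nr5a2 (native 15) and 8 for Nanog (native 7). Whether the loci differ from gene windows at large in these ratios was not tested. The lists also differ in length. Per 10000 peaks of the library, the 8 loci held 8.94 native and 8.83 BiD summits for Oct4, 3.78 and 6.55 for Sox2, 10.6 and 8.13 for Nr5a2, and 5.44 and 6.20 for Nanog. When each list was limited to its 50000 peaks of highest score, the log2 ratio was 0.03 for Oct4, 0.61 for Sox2, -0.37 for Nr5a2 and 0.10 for Nanog.

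At the level of regions, 44 of the 87 Oct4-bound regions at the loci were shared by both forms, 37 had Oct4BiD alone of the 2 and 6 native Oct4 alone. For Sox2, 22 of 77 were shared, 54 had Sox2BiD only and 1 native Sox2 only. For Nr5a2, 56 of 113 were shared, 53 had the native form only and 4 the BiD form only, and for Nanog 30 of 53 were shared, with 7 native only and 16 BiD only. As a share of the regions with either form, the shared regions were 0.506 for Oct4 (0.371 over the genome), 0.286 for Sox2 (0.393), 0.496 for Nr5a2 (0.555) and 0.566 for Nanog (0.558). No region at the loci had peaks in 3 or more BiD libraries and in no native library, or the reverse, patterns that only 552 and 61 of the 306466 regions of the genome showed, so that few were to be found among 211.

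Most regions belonged to few libraries. Of the 211 regions, 97 (46.0%) had a peak in 1 library, as had 46.0% of all regions, and 8 (3.79%) had a peak in all 8, against 1.49% of all regions. The 8 included the start of Pou2f1, a region near Cic and another at the window's edge at Pou2f2, and that 84.5 to 85.1 kb from Pou5f1. The rest lay upstream of Pou2f3, upstream of Pou3f1, and at Pou6f1 at Dazap2 and 47.9 to 48.0 kb downstream. The last of these was at the start of Tfcp2. Those near Cic, Dazap2 and Tfcp2 thus lay near starts of neighbouring genes, so the share is not one of POU genes alone. Both Oct4 forms, with no other library, marked 18 regions (8.53%, against 5.03% over the genome), and both Nr5a2 forms 20 (9.48%, against 10.1%). Both Sox2 forms alone marked 6 (2.84%, against 6.62%) and both Nanog forms alone 2 (0.948%, against 3.78%). Of the 18 Oct4 regions, 6 were at Pou3f1.

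Each summit was searched for the sequence that its factor is known to prefer, on both strands and within 50 bp. The octamer ATGCAAAT was found at 7 of 83 Oct4BiD summits (8.43%, exact 95% interval 3.46 to 16.6%) and at 2 of 49 native Oct4 summits (4.08%, 0.498 to 14.0%), near the 9.72% and 4.17% over all peaks of these libraries. With up to 1 mismatch the shares were 42.2% and 36.7%, against 43.0% and 33.9% of all their peaks. In flanking windows of the same size they were 11.4% for Oct4BiD and 11.9% for native Oct4. NR5A words (CAAGGTCA or CAAGGCCA) lay at 17 of 114 native Nr5a2 summits (14.9%, against 16.3%) and 6 of 62 Nr5a2BiD summits (9.68%, against 12.7%). The SOX word CCATTGTT lay at 1 of 79 Sox2BiD summits and 0 of 22 native Sox2 summits, and the NANOG word GCCATTA at 1 of 47 NanogBiD and 2 of 40 native Nanog summits. The shares over all peaks of these 4 libraries were 3.29%, 1.90%, 2.55% and 1.70%. Mismatches were allowed for the octamer alone, so these exact-word shares cannot be compared with the octamer shares at up to 1 mismatch. The AP-1 word TGANTCA, which no tagged factor is known to prefer, lay at 6 of 22 native Sox2 summits (27.3%, 10.7 to 50.2%) and 15 of 79 Sox2BiD summits (19.0%, 11.0 to 29.4%), against 12.4% of all peaks in each. In the other 6 libraries it lay at 12.5% of native Nanog summits (13.9% of all peaks), 10.6% of NanogBiD (11.4%), 8.16% of native Oct4 (6.66%), 4.82% of Oct4BiD (5.53%), 7.02% of native Nr5a2 (7.92%) and 11.3% of Nr5a2BiD summits (10.1%). A match is a description of the letters and does not show that the factor bound there.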

How the data were processed

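CUT&Tag peak lists of 8 libraries were analysed, 1 per group. Per the study's methods and the submitters' processing notes, Trim Galore 0.6.4 was used for trimming, Bowtie2 2.4.5 for mapping to mm10, SAMtools 1.16.1 for filtering and MACS 1.4.2 for peak calling, with no control library named. The score column, as deposited, is -10 times log10 of the p-value that MACS gave (threshold 1e-05, lowest score 50). The deposited summit signal is a height in whole tags, not scaled to depth. The read totals that the study gives were not used here. Removal of poorly mapped reads can leave repeats without peaks, though some summits lay beside simple repeats. The study's reporting form states that this experiment was performed once, while its methods say that replicates were merged before peak calling. Each list was treated as 1 library.

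Groups came from the sample titles. Summits were assigned to genes of GENCODE M21 (gene body or 100 kb around the first start site), using SciPy 1.17.1, pandas 2.3.3 and NumPy 2.4.6 under Python 3.11.15, with figures from matplotlib 3.10.9. Counting, merging and motif search were tested on simulated data. Peaks were merged at 1 bp of overlap. Intervals on shares are exact (Clopper-Pearson), and those on log2 ratios come from the exact binomial interval of the BiD share of summits, both at 95%. With 1 library per group no test was made. The background for counts of members was 21938 protein-coding genes or all 306466 regions. Alternatives were a 50 kb window, no gene body beyond 100 kb, a score of at least 100, the 50000 highest-scoring peaks, chained summits, other start-site limits and other motif distances.

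All 8 members were named. Regions named by rule were those within the Pou5f1 gene or 20 kb upstream, those within 2 kb of a member's first start, the region of each member with the most libraries, the peak with the highest score percentile, and the highest-scoring region of both forms alone for each factor. Other regions were chosen after their values were seen. They are the regions downstream of Pou5f1, the internal start and the 3′ end of Pou2f1, and those of Pou2f2 at 25.3 and 49.0 kb. They are also that of Pou2f3 at 9.98 kb, those upstream of Pou3f1, those of Pou3f2 at 71.6 and 95.1 kb, those of Pou3f3 at 33.5 and 43.1 kb, and that of Pou6f1 at 5.30 kb. The members and lists were chosen with earlier results of these data known. The list of further POU genes is not reported here.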

Additional observations from a re-analysis of the deposited data

Results flagged for a closer look

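Several summit counts moved against those of the other factors when the BiD library was set against the native library of the same factor. Each factor has 1 library per form, so these differences were not tested. Over the 8 loci the log2 ratio of summits, BiD over native, was -0.88 for Nr5a2, while it was above 0 for Nanog, Oct4 and Sox2. By locus, Nr5a2BiD minus native Nr5a2 was -12 at Pou2f2, -9 at Pou5f1 and at Pou6f1, -8 at Pou2f3, -6 at Pou3f1, -3 at Pou2f1 and at Pou3f2, and -2 at Pou3f3, and no other factor had fewer summits in BiD at these loci except Nanog at Pou2f1. There NanogBiD minus native Nanog was -2, with 4 summits against 6. The Nr5a2BiD list was also shorter as a whole, with 76217 peaks against 108030.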

How the results depend on the processing

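No paired analysis was possible because the titles carry no replicate numbers and each group holds 1 library. The log2 ratio of summits, BiD over native, kept its sign under every alternative run. Leaving out each locus in turn gave a range of 0.12 to 0.34 (Nanog), 0.66 to 0.94 (Oct4), 1.68 to 2.07 (Sox2) and -0.92 to -0.81 (Nr5a2). With the 50000 highest-scoring peaks per library it was 0.03 for Oct4, 0.61 for Sox2 and -0.37 for Nr5a2, outside the intervals of the main values. The 496 summits became 299 within 50 kb, 314 at a score of at least 100 and 295 with the 50000 highest-scoring peaks. Of the 64 counts by locus and library, 42, 36 and 32 moved by over 1.5 times under these settings. The 211 regions became 139 at that score and 125 with those peaks. Regions in 1 library were 156 with chained summits, 63 at that score and 49 with those peaks. Regions in all 8 were 3 with chained summits and 5 at that score. Motif shares within 25 bp were 0% for native Nanog, NanogBiD and Sox2BiD, 8.77% for native Nr5a2 and 3.23% for Nr5a2BiD, 2.04% for native Oct4 and 3.61% for Oct4BiD. Within 100 bp they were 6.38% for NanogBiD, 2.53% for Sox2BiD, 6.12% for native Oct4 and 13.3% for Oct4BiD. With up to 1 mismatch in the octamer, a search added after seeing the data, shares within 50 bp were 36.7% for native Oct4 and 42.2% for Oct4BiD. The causes were not tested, except that narrower windows and filters keep fewer peaks by construction. Depth was not taken into account, so the absence of a peak says that none was called, not that the factor was absent.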
